A study of Homo sapiens with 7 samples.

Results

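The step from definitive endoderm to anterior foregut endoderm was examined in 4 of the 7 ATAC-seq libraries of a stepwise differentiation of human embryonic stem cells. ATAC-seq marks open chromatin by the places where the Tn5 transposase inserts adapters. The members were chosen by sample title: the 2 libraries titled hDE (definitive endoderm) and the 2 titled hAFE (anterior foregut endoderm). The other 3 libraries, 2 of the undifferentiated cells (hESC) and 1 of pharyngeal foregut endoderm (hPFE), were used only to say where else a region was open. All 4 libraries came from H1, an established line of embryonic stem cells, with no genetic change named in the labels, so every value describes a single line. The labels give neither the agents nor the days of the differentiation. The hDE libraries are labelled as taken again from an earlier series and the hAFE libraries are not. In every difference below, the change of stage and the change of series cannot be told apart. Whether replicates were separate cultures is not in the labels, and the p-values reflect the scatter among 4 libraries, part or all of which may be technical.

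Definitive endoderm is the germ layer that forms the lining of the gut and its organs. It arises from mesendoderm under Nodal signalling through SMAD2 and SMAD3, with EOMES, GATA6, GATA4, SOX17 and FOXA2 as its best known transcription factors. When BMP, Nodal and WNT signals are held down the layer takes an anterior foregut fate, which later gives rise to thyroid, lung, thymus and parathyroid, and its regulators include members of the NKX2, FOX, PAX and OTX families. Open chromatin at a gene is a sign of regulatory access and not a measure of its RNA.

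Between 299016 and 299374 peaks were deposited for each of the 4 libraries. The genome-wide background, the pileup the peak caller took as its floor in a library, was recovered from the peak values and was 4.58 and 7.94 in hDE and 2.22 and 3.85 in hAFE, replicates 1 and 2 in that order here and in every pair of values below. A library's 50000 regions of lowest p are called strict here, and the strict regions of all 7 libraries merged to 129718 regions. Height is given in 2 ways. The first is the summit over the library's background, (summit + 1) / (background + 1). The second, used for every test, is the normalised summit height, the pileup at the summit (how many sequenced ends or fragments the peak caller counted there) plus 1 after cyclic loess normalisation of the 4 libraries. The median strict summit stood 11.5 and 26.0 times above background in hDE and 23.6 and 15.2 times in hAFE, so the replicates of a stage differed in both measures. Coordinates are of the build hg38. The cells were profiled in bulk, so fewer cells with an open region and a region less open in each cell cannot be told apart.

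The labels were checked by the number of strict regions within 100 kb of genes known for each stage. The 19 definitive endoderm genes, 18 transcription factors and the secreted CER1, had 119 and 84 strict regions in hDE and 75 and 70 in hAFE, while all genes together had 38127 and 34641 in hDE and 38945 and 38181 in hAFE. The 20 anterior foregut factors had 103 and 81 in hDE and 87 and 99 in hAFE, ranges that overlap. Single genes of this list went both ways. PAX9 had 9 and 9 strict regions in hDE and 3 and 5 in hAFE. PAX1 had 5 and 7 and then 5 and 5, and TBX1 had 0 and 0 and then 2 and 0. FOXP4 had 7 and 2 and then 11 and 11, and NKX2-6 had 1 and 2 and then 5 and 6.

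More regions changed between the stages than between replicates. A region was gained where it was strict in both hAFE libraries with no deposited peak in either hDE library (2656 regions, 2.05% of all), and lost in the reverse case (4152 regions, 3.2%). Between single libraries of the 2 stages 6883 to 12141 regions were strict in 1 and absent from the other, against 61 to 1201 between replicates. The Jaccard index, shared over covered bases of strict regions, was 0.495 for the pair of hDE libraries, 0.570 for the pair of hAFE libraries, and 0.303 to 0.432 across stages. The difference of 0.165 was the highest of the 3 divisions of 4 libraries into pairs (one-sided exact permutation p = 0.333, the smallest this design allows). Which of gain and loss was the larger turned with the definition: it was gain, 2433 against 2127, where strict meant a summit of at least 10 times background, 14662 against 13348 where it meant −log10 q from 5 up, and 5575 against 5534 without hAFE replicate 2.

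**Figure D1:**
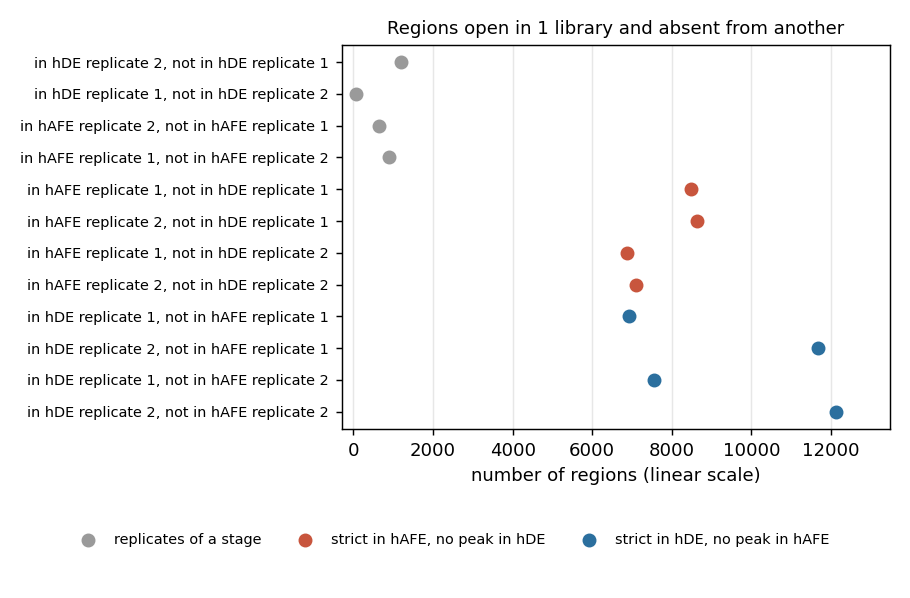
Number of regions strict in 1 library and without a deposited peak in another (horizontal axis, linear), for the 12 ordered pairs of the 4 libraries. Replicate pairs lie between 61 and 1201, and pairs across the stages lie between 6883 and 12141, with hDE replicate 2 giving the 2 highest counts.

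Gained and lost regions lay away from promoters and differed in where else they had a peak. Only 20 gained and 9 lost regions reached a promoter window (250 bases before to 50 after a start in the RefSeq table), against 8508 of the 21276 regions that were strict in all 4 libraries. Of all 129718 regions 11808 reached one. Over 100 kb from any end of a protein-coding gene lay 35.4% of gained and 44.8% of lost regions. The share was 13.5% of stable and 30.7% of all regions. Of the lost regions 62.1% had no peak in hESC or hPFE and so were seen in hDE alone. The share without a peak in either was 29.1% of gained and 13.5% of all regions. Of the gained regions 59.3% also had a peak in hPFE, against 11.8% of the lost and 60.2% of all regions. The hPFE library is labelled like hAFE in its source and both hESC libraries like hDE. Stage and series cannot be told apart in these shares. No peak in hESC was found for 62.5% of gained and 69.2% of lost regions, against 30.6% of all.

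**Figure D2:**
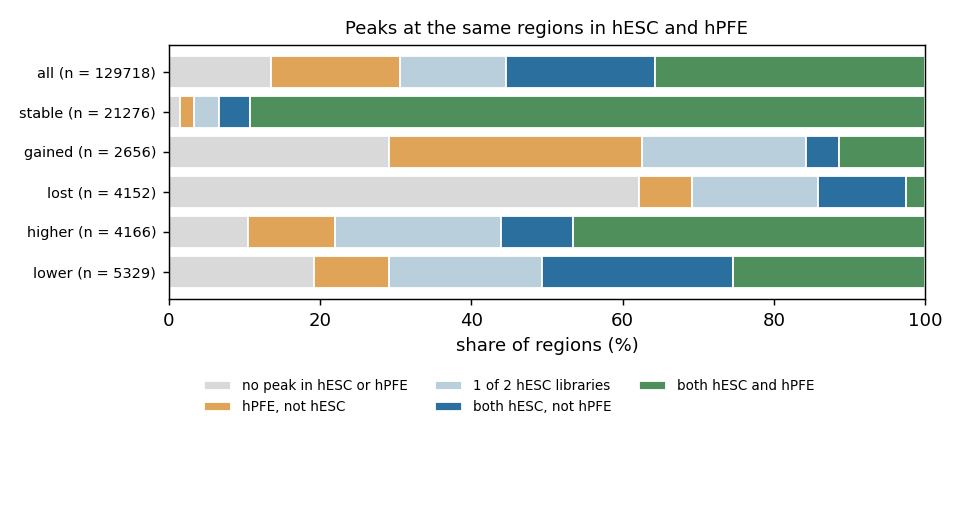
Share of regions (%) by where else they had a deposited peak, for all regions, stable, gained and lost regions, and regions whose summit was higher or lower in hAFE by the test described next. The lost bar is mostly grey (62.1%, neither hESC nor hPFE) and the stable bar mostly green (89.3%, both hESC libraries and hPFE).

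Where a region had a peak in all 4 libraries (63005 regions) its summit height was tested with limma. The spread behind each SE and p was shared by regions of like height. Neither value measures how closely the replicates of a single region matched. At an adjusted p under 0.05 the summit was higher in hAFE in 4166 regions (6.61%) and lower in 5329 (8.46%), with median log2 differences of 1.70 and -1.81. The groups did not overlap in 4147 of the higher and 5303 of the lower regions, which the selection by p nearly fixes. Over all 63005 regions both hAFE libraries stood above both hDE libraries in 24.7% and below them in 24.6%. Of the higher regions 72.6% also had a peak in hPFE, and of the lower regions 43.9%. The share was 60.2% of all 129718 regions, fitted or not, and 93.3% of the 21276 stable regions. It was not computed over the 63005 fitted regions. Both hESC libraries are labelled like hDE in their source, and hPFE like hAFE. Presence in both hESC libraries with absence from hPFE was seen for 25.2% of lower regions and 19.6% of all 129718, fitted or not. The counts depended on the scaling, tried here with each library divided by its own background in place of loess. Of 224 regions recomputed singly, all chosen past the threshold, 198 then missed it and 26 did not. Direction held at each of the 224, which the selection by p nearly fixes. With this scaling the counts over all fitted regions were 143 higher and 169 lower. Without hDE replicate 2 the counts were 1687 and 2005.

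The regions at the genes of definitive endoderm had the highest share lower of the 20 gene lists. Of 125 fitted regions within 100 kb of these 19 genes, 42 were lower in hAFE (33.6%), at 15 genes, and 5 were higher, against 6.5% lower and 5.87% higher over all 49106 fitted regions within 100 kb of a gene. The same genes had 4 gained and 6 lost of 210 regions, against 1.91% gained and 2.55% lost of all regions near a gene. The median log2 difference of the 125 was -0.40, against 0.05 over those 49106. FOXA1, FOXA3, HNF4A and SOX7 were the 4 genes with no lower region. The number lower ran from 24 to 34 with a library left out, was 14 with the deposited fold over local background in place of the summit, and 3 with background scaling.

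GATA4, a zinc finger factor of endoderm and heart, showed the change inside the gene. The region chr8:11709226-11710471 had normalised heights of 319 and 216 in hDE and 23.8 and 30.9 in hAFE, a log2 difference of -3.28 ± 0.44 (SE, 2 libraries a stage, adjusted p = 5.68e-11). It stood only 6.43 and 13.7 times above background in hESC and had no peak in hPFE. Of its 10 fitted regions 4 were lower. A different GATA4 region, 47704 bp outside the gene, was gained, at 28.6 and 14.8 times background in hAFE.

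SOX17, an HMG-box factor needed for gut endoderm, had 3 of 10 fitted regions lower and 1 higher. The region chr8:54443259-54444419, 13516 bp from the gene, fell from heights of 385 and 403 to 54.0 and 57.9 (log2 difference -2.82 ± 0.37, adjusted p = 1.08e-11). The region over the gene itself fell from 246 and 226 to 46.8 and 65.8 (-2.09 ± 0.40, adjusted p = 8.79e-06). The region that rose lay 35085 bp away, at 40.9 and 48.7 in hDE and 137 and 204 in hAFE.

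EOMES, the T-box factor that starts endoderm formation, had 6 of 11 fitted regions lower and none higher, and 3 lost regions. The strongest lost region, chr3:27714040-27714668, was 36.8 and 69.9 times background in hDE and had no peak in the other 5 libraries. Upstream, at chr3:27728317-27729106, heights of 243 and 220 fell to 29.4 and 66.3 (-2.39 ± 0.42, adjusted p = 8.09e-07). That region was 18.0 and 21.5 times background in hESC as well. With the deposited fold its difference was -0.32 and past no threshold.

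Several other endoderm factors had regions that fell. PRDM1, a zinc finger repressor, had 3 of 16 fitted regions lower and none higher, with a median difference of -0.18. The strongest fall, at a region 38975 bp away, was from 266 and 158 to 18.6 and 17.8 (-3.49 ± 0.48, adjusted p = 1.31e-10). This region had no peak in hESC or hPFE. GSC, a homeobox gene of the organizer, had 5 of 10 regions lower and 1 higher, the strongest fall from 242 and 133 to 31.7 and 22.3 (-2.75 ± 0.47). LHX1, a LIM factor of the same tissue, had 3 of 7 regions lower and none higher. Its strongest fall was from 115 and 95.3 to 13.5 and 29.7 at a region 86332 bp away (-2.39 ± 0.50). In these 3, chosen for their falls, the groups did not overlap. FOXA2, a pioneer factor that both stages use, had 4 of 11 regions lower and 1 higher. The strongest lower region fell from 311 and 260 to 52.8 and 99.1, a call missed with the deposited fold, and the one that rose went from 50.8 and 42.9 to 155 and 152 (1.72 ± 0.44, adjusted p = 1.56e-03).

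**Figure D3:**
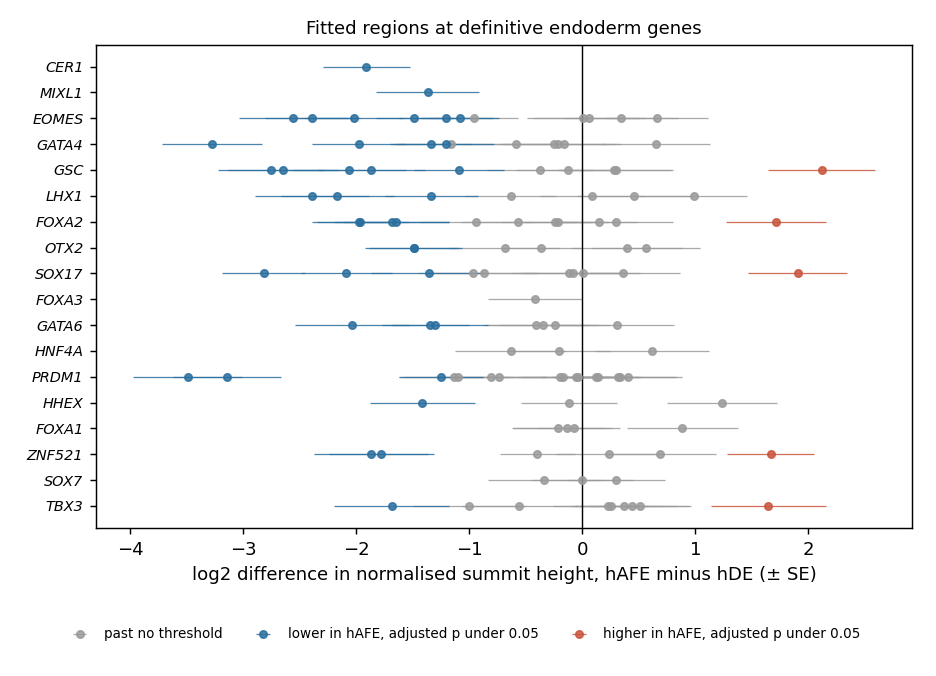
Log2 difference in normalised summit height, hAFE minus hDE (horizontal axis, points with SE), for each of the 119 fitted regions at 18 of the 19 definitive endoderm genes, with genes ordered by median. Blue points, the 39 of these regions past the threshold and lower, run to -3.49 at PRDM1, and 5 red points are higher, at FOXA2, GSC, SOX17, TBX3 and ZNF521.

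Promoters moved less than distal regions. Of 11280 promoter regions with a peak in all 4 libraries 183 were higher (1.62%) and 91 lower (0.807%). Among promoters of list genes, 13 of 222 were higher and 12 lower. The 12 were those of CER1, DLX6, EOMES, GATA6, GSC, MIXL1, NODAL, OTX2, SP5, TEK, VIM and ZIC1, and 6 of the 11 fitted promoters of definitive endoderm genes are among them. The 13 were those of BMPR1B, CLDN4, CYP26C1, DISP1, FOXE1, GRHL3, KRT8, NKX2-3, SMAD9, SMO, SOX3, STRA6 and WT1. Promoters of SOX17, GATA4 and the other list genes on chromosome 8 were not analysed here.

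The promoter of CER1, a secreted antagonist of Nodal and BMP, had heights of 247 and 258 in hDE and 50.3 and 89.6 in hAFE (-1.91 ± 0.38, adjusted p = 2.42e-05). That of GATA6 had 322 and 266, then 118 and 113 (-1.34 ± 0.34, adjusted p = 1.19e-03). The promoter of SP5, a target of WNT signalling, had 243 and 188, then 51.5 and 69.3 (-1.84 ± 0.40, adjusted p = 1.28e-04). These 3 of the 12 kept their call with each library left out. NODAL, the ligand of the pathway, had 214 and 106, then 60.5 and 48.0 (-1.48 ± 0.43, adjusted p = 6.89e-03), and EOMES had 256 and 262, then 90.2 and 166 (-1.08 ± 0.34, adjusted p = 1.45e-02). In each of these 5 the groups did not overlap, and over all 11280 promoters hAFE stood below hDE without overlap in 10.7% and above it in 20.7%. Among the 12, 6 and 5 missed the threshold without hDE replicates 1 and 2, and 8 and 4 without hAFE replicates 1 and 2, with adjusted p up to 0.565, 0.891, 0.597 and 0.218. With median scaling 5 missed it, GATA6 among them (adjusted p = 0.193). With the deposited fold over local background all 12 missed it, and the differences at EOMES, CER1 and NODAL were 0.20, 0.15 and 0.16, with adjusted p of 0.888, 0.923 and 0.921. The local background had moved with the summit there: over the genome-wide background, with 1 added to each, it was 4.21 and 7.90 in hDE and 1.28 and 2.17 in hAFE at CER1, and 4.72 and 6.88, then 2.36 and 3.64, at EOMES.

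Among promoters that rose, NKX2-3, a homeobox gene of pharyngeal and gut endoderm, went from 71.0 and 74.5 to 249 and 239 (1.75 ± 0.38, adjusted p = 1.19e-04). The tight junction gene CLDN4 went from 39.6 and 17.4 to 205 and 122 (2.59 ± 0.47, adjusted p = 2.69e-06). BMPR1B, a type I BMP receptor, went from 24.0 and 23.2 to 143 and 221 (2.91 ± 0.47, adjusted p = 9.06e-08). The first stood 6.43 and 22.2 times above background in hESC and 24.2 in hPFE, and was higher in both hAFE libraries than in any other. Only these 3 of the 13 kept the call with each library left out. Without hDE replicate 2, 9 of the 13 missed it, and 4, 7 and 6 did without hDE replicate 1 and hAFE replicates 1 and 2, with adjusted p up to 0.598, 0.215, 0.354 and 0.20 in that order. With the deposited fold 8 missed it, NKX2-3 among them.

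**Figure D4:**
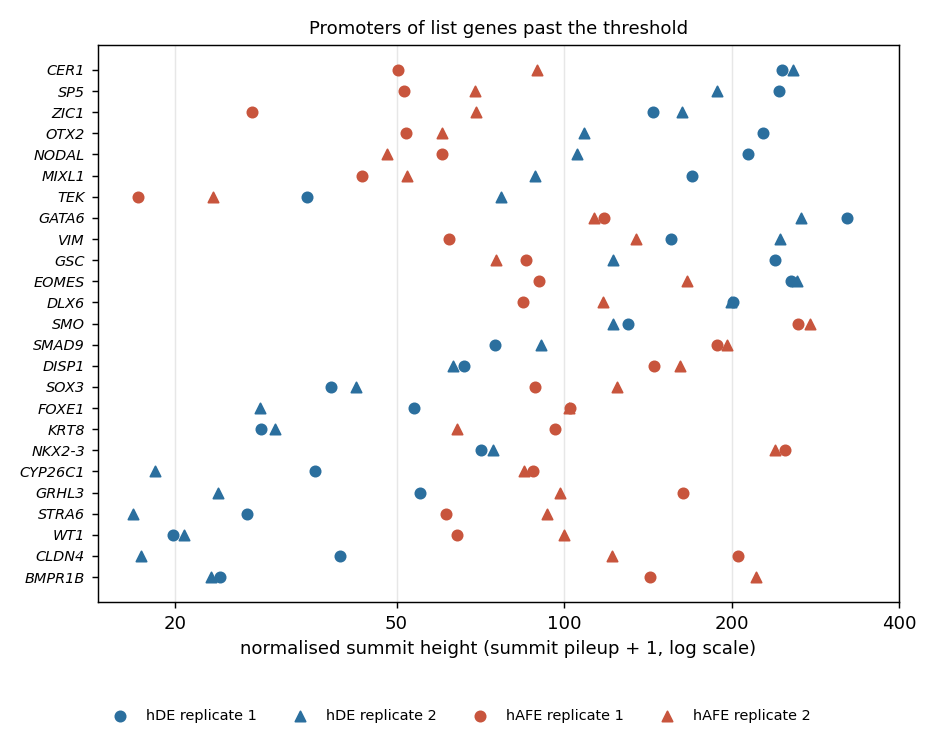
Normalised summit height (summit pileup + 1, log axis) in each of the 4 libraries at the 25 promoters of list genes past the threshold, from the largest fall (CER1) to the largest rise (BMPR1B). Blue marks hDE and red hAFE, circles replicate 1 and triangles replicate 2, and at each of these promoters the 2 colours do not overlap.

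The 250 bases before the start are shown for 6 promoters to let a reader see what the changed regions hold: 3 of Nodal signalling (CER1, NODAL and the lost GDF3), 1 of an anterior head factor that fell (OTX2) and 2 that rose (NKX2-3, CLDN4). Capitals mark matches to the 17 motifs searched on both strands. The sequences are from RefSeq, GRCh38.p14, 5′ to 3′ on the strand of the gene. CER1 lies at chr9:14722734-14722983 (minus strand), NODAL at chr10:70441682-70441931 (minus), GDF3 at chr12:7695776-7696025 (minus), OTX2 at chr14:56805668-56805917 (minus, the start whose promoter passed), NKX2-3 at chr10:99532692-99532941 (plus) and CLDN4 at chr7:73830746-73830995 (plus).
CER1: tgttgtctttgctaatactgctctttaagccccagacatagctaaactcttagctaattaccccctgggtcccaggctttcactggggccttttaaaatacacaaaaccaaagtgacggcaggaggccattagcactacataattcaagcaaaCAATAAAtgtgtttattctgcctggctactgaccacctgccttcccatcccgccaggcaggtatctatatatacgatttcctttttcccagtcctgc
NODAL: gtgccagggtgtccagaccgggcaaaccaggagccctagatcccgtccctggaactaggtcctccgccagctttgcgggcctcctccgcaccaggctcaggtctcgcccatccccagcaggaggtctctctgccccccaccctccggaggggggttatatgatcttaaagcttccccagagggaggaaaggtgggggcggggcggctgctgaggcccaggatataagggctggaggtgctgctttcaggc
GDF3: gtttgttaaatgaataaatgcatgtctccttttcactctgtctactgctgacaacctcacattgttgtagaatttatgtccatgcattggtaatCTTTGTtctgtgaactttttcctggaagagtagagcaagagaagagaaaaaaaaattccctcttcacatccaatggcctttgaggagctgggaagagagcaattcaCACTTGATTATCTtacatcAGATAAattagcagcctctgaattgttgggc
OTX2: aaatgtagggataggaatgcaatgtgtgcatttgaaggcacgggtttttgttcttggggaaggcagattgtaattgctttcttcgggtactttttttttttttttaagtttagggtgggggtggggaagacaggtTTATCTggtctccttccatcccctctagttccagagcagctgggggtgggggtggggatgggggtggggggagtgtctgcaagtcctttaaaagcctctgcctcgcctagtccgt
NKX2-3: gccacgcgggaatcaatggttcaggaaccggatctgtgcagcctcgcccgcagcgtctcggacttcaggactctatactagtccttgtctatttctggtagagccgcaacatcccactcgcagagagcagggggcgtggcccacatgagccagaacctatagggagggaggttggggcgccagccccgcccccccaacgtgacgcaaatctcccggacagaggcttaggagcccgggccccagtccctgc
CLDN4: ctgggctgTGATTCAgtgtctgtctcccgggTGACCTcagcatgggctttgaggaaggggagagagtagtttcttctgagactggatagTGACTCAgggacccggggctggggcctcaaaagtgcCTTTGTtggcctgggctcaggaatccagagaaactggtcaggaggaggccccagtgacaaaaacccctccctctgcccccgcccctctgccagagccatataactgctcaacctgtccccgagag
The capitals are a CDX and HOX match in CER1, matches to SOX, to NKX2 and, 2 times, to GATA in GDF3, a GATA match in OTX2, and matches to SOX, a nuclear receptor site and, 2 times, AP-1 in CLDN4. NODAL and NKX2-3 held none of the 17 in this window.

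The motifs included those of GATA factors (AGATAA), SOX (ACAAAG), forkhead (TGTTTAC), T-box (AGGTGTNA), paired-like homeodomain (TAATCC), Smad (CAGACAG), AP-1 (TGANTCA), TEAD (GGAATGT), octamer (ATGCAAAT), NKX2 (CACTTGA), CTCF core (AGGTGGCAG), nuclear receptor site (AGGTCA), CDX and HOX (TTTATNG), RFX and NRF1 by their consensus and grainyhead (AACCGGTT). Only the 250 bases before the start were searched in each window. GATA letters were in 14 of the 95 lower windows (14.7%), 6.31% of the 206 higher and 7.08% of all 22156. Paired-like homeodomain letters were in 2.11% of lower, 6.31% of higher and 4.86% of all windows, and forkhead letters in 3.16%, 4.85% and 2.46%. CDX and HOX letters were in 11.6% of lower, 7.28% of higher and 7.46% of all windows. AP-1 letters were in 9.47% of lower, 8.25% of higher and 5.36% of all, and SOX letters in 12.6%, 18.4% and 11.6%. Mean GC content of the same bases was 57.1% in lower, 58.8% in higher and 60.6% in all windows, and its part in these shares was not tested.

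Genes of the Nodal pathway and of mesendoderm fell beyond their promoters too. Of 77 fitted regions at the 20 genes, 19 were lower (24.7%) and 6 higher, with 7 lost (5.07%) and 1 gained of 138 regions. CER1, EOMES and MIXL1 stand in this list and in the list of definitive endoderm genes. CFC1, a co-receptor of Nodal, had a region 742 bp from the gene at 282 and 308 in hDE and 26.1 and 29.3 in hAFE (-3.42 ± 0.43, adjusted p = 2.70e-12), but a near-identical copy of the gene lies nearby and makes its reads uncertain. LEFTY1, a Nodal antagonist and target, fell from 138 and 88.0 to 13.4 and 29.6 at a region 9447 bp away (-2.47 ± 0.50, adjusted p = 2.87e-05). GDF3, a ligand that works with Nodal, lost its promoter region, which was 6.46 and 16.6 times background in hDE. It was at 3.86 and 12.6 in hESC and 3.15 in hPFE. SMAD2, through which Nodal signals, had 2 of 10 fitted regions lower, 1 higher and 1 lost region. At the intracellular end of the pathway SMAD3 had a higher region inside the gene (24.2 and 17.2, then 113 and 86.7, with a difference of 2.28 ± 0.50), a call lost without hDE replicate 2 (adjusted p = 0.0555).

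Surface and secreted markers of endoderm had 12 of 72 fitted regions lower (16.7%) and 4 higher, with 2 gained and 11 lost (7.43%) of 148 regions. CDH2, the N-cadherin of migrating endoderm, fell inside the gene from 255 and 196 to 12.5 and 20.4 (-3.81 ± 0.48, adjusted p = 2.74e-12). KIT, a receptor used to sort definitive endoderm, fell inside the gene from 160 and 129 to 15.7 and 18.6 (-3.07 ± 0.50, adjusted p = 8.26e-08), and had 3 of 4 regions lower and 1 gained. FLRT3, an adhesion protein of anterior endoderm, fell from 157 and 172 to 23.9 and 15.5 at a region 68677 bp away (-3.09 ± 0.49, adjusted p = 3.03e-08), while another of its regions was higher. CXCR4, the chemokine receptor that marks definitive endoderm, had 1 gained, 1 lost and 1 lower region. CDH1, the E-cadherin of epithelia, went the other way inside the gene, from 32.5 and 21.5 to 302 and 113 (2.80 ± 0.47, adjusted p = 1.68e-07).

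**Figure D5:**
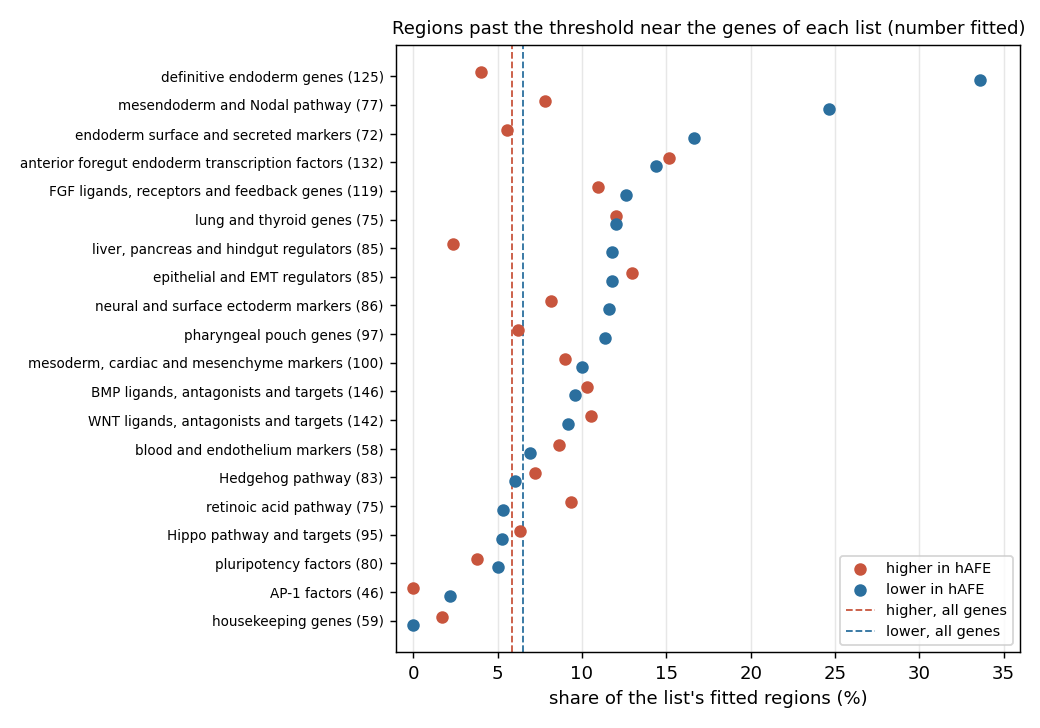
Share of fitted regions near each list's genes (%) that were higher (red) or lower (blue) in hAFE, with dashed lines for all fitted regions within 100 kb of a gene (5.87% and 6.5%) and the number fitted in brackets. The definitive endoderm genes (33.6% lower) and the Nodal list (24.7%) lie farthest to the right, and the housekeeping genes lie at 1.69% higher and 0% lower.

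The transcription factors of anterior foregut moved in both directions, gene by gene. Of 132 fitted regions at 20 genes, 20 were higher (15.2%) and 19 lower (14.4%), beside 3 gained and 12 lost (4.92%) of 244 regions, and 6 of the 12 were at FOXP2. FOXA2, HHEX and OTX2 stand in this list and in the list of definitive endoderm genes. They had 4, 1 and 2 of the lower regions and, at FOXA2 alone, 1 of the higher. FOXP4, a forkhead factor of foregut and lung, had 7 of 16 regions higher and none lower, the strongest inside the gene at 25.5 and 17.3 in hDE and 175 and 132 in hAFE (2.85 ± 0.49, adjusted p = 3.98e-07). FOXE1, a thyroid and pharyngeal forkhead factor, had 3 of 4 higher, with 39.6 and 28.0, then 146 and 243, at a region 21100 bp away (2.50 ± 0.45, adjusted p = 1.63e-06). NKX2-6, a homeobox gene of the pharyngeal pouches, rose over the gene from 40.8 and 41.5 to 211 and 225 (2.41 ± 0.43, adjusted p = 1.16e-06), and NKX2-3 had 3 of 8 higher. At these 4 genes no fitted region was lower, but FOXE1 had 1 lost region and NKX2-6 had 1 gained.

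Other anterior genes fell. PAX9, a pouch factor, had 3 of 6 fitted regions lower and none higher, the first from 105 and 118 to 12.5 and 21.8 (-2.76 ± 0.51, adjusted p = 2.72e-06), and 2 lost regions. At the other two lower PAX9 regions hPFE stood at 17.6 and 21.3 times background. OTX2, a head organizer factor, had 2 of 6 lower and 1 gained region. IRX3 had 3 of 6 lower, NKX2-1 and HHEX had 1 each, and ISL1 had 1 lower and 1 higher. None of 7 fitted regions at SOX2, 9 at PAX1, 1 at TBX1 and 4 at HOXA3 passed in either direction.

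Pharyngeal pouch genes had 6 of 97 fitted regions higher (6.19%) and 11 lower (11.3%), with 6 gained (3.64%) and 4 lost (2.42%) of 165 regions. FOXI3, a forkhead factor of pharyngeal arch and pouch, rose from 22.6 and 30.5 to 201 and 267 at a region 28881 bp away (3.14 ± 0.45, adjusted p = 9.01e-10), and it kept its call with background scaling too (adjusted p = 0.0257), while another of its regions was lower. RIPPLY3, a partner of TBX1, rose inside the gene from 56.3 and 43.1 to 198 and 175 (1.92 ± 0.43, adjusted p = 1.61e-04). GATA3, a factor of parathyroid and thymus, had 3 gained and 1 lost region. EYA1, a phosphatase and co-activator of pouch development, had 1 gained region and 1 that fell from 241 and 269 to 105 and 99.5 (-1.32 ± 0.36), a call missed with the deposited fold and with median scaling.

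The liver, pancreas and hindgut regulators had 10 of 85 regions lower (11.8%) and 2 higher. Of the 2 that rose, 1 was at NKX6-1, a pancreatic factor (22.6 and 31.2, then 249 and 235, difference 3.19 ± 0.45, adjusted p = 3.22e-10). The lung and thyroid genes had 9 of 75 higher and 9 lower, with 1 gained and 13 lost (8.67%) of 150 regions, and 6 of the 13 were at FOXP2.

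Signalling genes were split between the directions. Of 146 fitted regions at BMP genes, 15 were higher (10.3%) and 14 lower (9.59%), with 6 gained and 7 lost of 256 regions. The ligand BMP2 fell at a region 68547 bp away from 257 and 215 to 21.9 and 20.9 (-3.46 ± 0.46, adjusted p = 4.40e-11), and the antagonist FST from 235 and 147 to 21.0 and 20.3 (-3.17 ± 0.48, adjusted p = 6.14e-09), while another FST region was lower and 1 higher. BMP2 had 4 regions lower, 1 gained and 1 lost. The receptor BMPR1A rose from 26.8 and 44.5 to 173 and 237 (2.55 ± 0.44, adjusted p = 6.36e-07), the inhibitory SMAD6 from 48.0 and 32.6 to 193 and 193 (2.29 ± 0.44, adjusted p = 7.76e-06), and the target ID1 from 78.9 and 126 to 252 and 370 (1.61 ± 0.35, adjusted p = 8.31e-05), the last a call missed with the deposited fold. ID1 is a direct target of BMP signalling, and both of its regions past the threshold rose.

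WNT genes had 15 of 142 regions higher (10.6%) and 13 lower (9.15%), with 3 gained and 8 lost of 257 regions. TCF7L2, a nuclear effector, had 5 of 17 higher and none lower, with a gained region at 35.4 and 34.4 times background and a lost one at 6.10 and 16.0. The receptor gene FZD8 fell from 137 and 144 to 13.2 and 20.1 (-3.11 ± 0.50, adjusted p = 6.17e-08), the feedback gene AXIN2 fell at a region 10635 bp away from 178 and 213 to 20.4 and 51.7 (-2.58 ± 0.45, missed with the deposited fold) while another of its regions was higher, and the antagonist DKK1 rose from 19.96 and 19.1 to 83.7 and 136 (2.45 ± 0.50, adjusted p = 3.63e-05) at a region 14012 bp away, while another DKK1 region was lower.

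FGF genes had 13 of 119 regions higher (10.9%) and 15 lower (12.6%), with 9 gained (3.88%) and 6 lost (2.59%) of 232 regions. The receptor FGFR2 rose from 27.0 and 17.5 to 152 and 110 (2.57 ± 0.49, adjusted p = 8.24e-06) at a region 26302 bp away, and in all had 2 regions higher and 3 lower. The feedback inhibitor SPRY4 fell from 201 and 177 to 31.2 and 34.9 (-2.51 ± 0.45, adjusted p = 1.47e-06), and in all had 3 regions lower and 1 higher.

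Retinoic acid genes had 7 of 75 regions higher (9.33%) and 4 lower. The retinol dehydrogenase RDH10, the first step of synthesis, rose inside the gene from 29.7 and 18.4 to 121 and 197 (2.72 ± 0.48, adjusted p = 1.12e-06). The receptor RARA rose from 36.8 and 19.8 to 126 and 168 (2.43 ± 0.48, adjusted p = 1.42e-05), and the aldehyde dehydrogenase ALDH1A1 from 38.1 and 51.8 to 185 and 184 (2.05 ± 0.43, adjusted p = 6.21e-05). The promoters of CYP26C1, which degrades the ligand, and STRA6, which imports retinol, rose as well, both calls lost without hDE replicate 2 (adjusted p = 0.416 and 0.297), the first also without hAFE replicate 1 (adjusted p = 0.0635) and the second without hAFE replicate 2 (adjusted p = 0.0794). Hedgehog genes had 6 of 83 regions higher and 5 lower, and Hippo genes 6 of 95 and 5, with 8 gained (4.10%) and 5 lost (2.56%) of 195 regions. The Hippo gene AMOTL1, a junction protein that holds YAP1, fell inside the gene from 341 and 339 to 21.2 and 39.0 (-3.57 ± 0.42, adjusted p = 6.80e-14), beside 1 more lower, 1 gained and 2 lost regions.

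Epithelial genes had 11 of 85 regions higher (12.9%) and 10 lower (11.8%), with 4 gained and 1 lost of 148 regions. Besides CDH1 and CLDN4, GRHL2, a grainyhead factor of epithelial junctions, rose from 22.8 and 12.9 to 184 and 97.7 at a region 73605 bp away (2.96 ± 0.50, adjusted p = 2.71e-07), while another of its regions was lower, and the keratin gene KRT18 from 68.6 and 51.6 to 259 and 155 (1.75 ± 0.41, adjusted p = 3.56e-04). GRHL1 gained a region at 42.2 and 13.4 times background. At VIM, the intermediate filament gene of mesenchyme, the promoter was lower, and at OVOL2, an epithelial repressor of ZEB genes, 1 region fell and 1 rose.

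Markers of other cell types were given the same count. Mesoderm, cardiac and mesenchyme genes had 9 of 100 regions higher and 10 lower. Neural and surface ectoderm genes had 7 of 86 and 10, blood and endothelium genes 5 of 58 and 4, pluripotency genes 3 of 80 and 4, and AP-1 genes 0 of 46 and 1. The summed number of strict regions was 78 and 78 in hDE and 65 and 73 in hAFE at the mesoderm list, 62 and 50 and then 51 and 62 at the ectoderm list, and 35 and 37 and then 46 and 47 at the blood and endothelium list. The part of such cells in the results was not tested. The 28 housekeeping genes had 1 of 59 regions higher, at YWHAZ, none lower, and 1 lost region, inside TBP.

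By nearest gene end, the 6 largest rises and the 6 largest falls were assigned to no gene of the lists. KIF13A, which encodes a kinesin motor, held the region that rose most, from 22.6 and 13.2 to 373 and 252 (4.15 ± 0.46, adjusted p = 1.30e-15). Regions nearest to NOX4, GLIS3, ADGRL2 and FLRT2 came next, with 1 more region 931524 bp from any gene, and the differences of these 5 ran from 3.71 to 4.11. The region that fell most lay 112106 bp from TCF4, a basic helix-loop-helix factor, at 434 and 395 in hDE and 19.1 and 14.3 in hAFE (-4.65 ± 0.44, adjusted p = 8.73e-21). Those nearest to GATB, CETN3, TOP2B, LOC128966724 and TSHZ2 ran from -4.42 to -4.07. Of the 12, 9 lay over 100 kb from the nearest gene end, those of NOX4 and ADGRL2 inside the gene. The region nearest to the end of TOP2B (difference -4.18) lay inside RARB, a gene of the retinoic acid list. It was over 100 kb from both ends of RARB and so was not counted with that list. All 12 kept their calls in each alternative that fitted them, background scaling included. By number, WWC1 and VPS41 had the most gained regions, 4 each of 22 and 13, against 1.91% of all regions near a gene. Another 19 genes had 3, of which LRIG3, PDLIM5, SGK1, SGPP2, TMEM229A and USP25 held the strongest. FOXP2 had the most lost, 6 of 16, against 2.55% of all regions near a gene. Another 9 genes had 4, of which ANGPT1, COP1, GPD2, KLHL1, RP1, SPOCK3 and TNR held the strongest. Of 67 such counts at named genes, at least 45 changed with 25000 strict regions, and at least 37 with −log10 q from 5 up.

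Among promoters outside the lists, the strongest of the 20 gained (0.169% of 11808 promoter regions) were those of PROM2, TEX52, SORT1, TMPRSS11F, DNMBP and IKBKG. PROM2, a membrane protein of epithelia, was at 54.6 and 33.0 times background in hAFE, 15.1 and 25.1 in hESC and 8.11 in hPFE; hDE was the only stage with no deposited peak. SORT1, a sorting receptor, was at 36.3 and 46.8 with no peak in hESC and 9.91 in hPFE, at 1 of its 2 starts. The strongest of the 9 lost (0.0762%) were those of TP53TG5, S100Z, CNGA4, CTNNA2, HOXA2 and TMCC3. HOXA2, a Hox gene of the hindbrain and arches, was at 10.4 and 33.9 times background in hDE, with no peak in the other 5 libraries. The largest promoter fall by height was at PRSS2, from 341 and 411 to 21.3 and 25.6 (-4.00 ± 0.43, adjusted p = 1.18e-16), with PRSS1 and PRSS3 also lower. These 3 trypsinogen genes are near-identical copies, and IKBKG has a copy as well, so reads at them are uncertain.

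Regions beside microRNA genes were looked at within 1 kb of the hairpin, a window chosen after values had been seen. Of 379 hairpins with a region 5 were beside a gained and 5 beside a lost region (1.32% each), and of 287 with a fitted region 8 were higher (2.79%) and 7 lower (2.44%). Of the 7 lower, 5 are the clustered hairpins MIR302A to MIR302D and MIR367 and share 1 region, chr4:112648617-112649256, with heights of 257 and 111 in hDE and 19.5 and 42.1 in hAFE (-2.56 ± 0.47, adjusted p = 2.16e-06). It was 16.7 and 28.3 times background in hESC, where this cluster is known for its high expression, 32.6 and 29.5 in hDE, 4.97 and 7.01 in hAFE, and had no peak in hPFE. The call was missed without hDE replicate 1 (adjusted p = 0.0810) and with the deposited fold. MIR205, a microRNA of epithelia, lay 989 bp from a gained region at 36.3 and 30.3 times background in hAFE and 11.6 and 24.6 in hESC. The mature sequences (RefSeq, GRCh38.p14) are shown because a shared seed, bases 2 to 8 in capitals, sets which messages a microRNA binds. The 4 of miR-302 share a seed, and miR-367 and miR-205 each have another.
hsa-miR-302a-3p: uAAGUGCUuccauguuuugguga
hsa-miR-302b-3p: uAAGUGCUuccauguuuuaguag
hsa-miR-302c-3p: uAAGUGCUuccauguuucagugg
hsa-miR-302d-3p: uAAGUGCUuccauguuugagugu
hsa-miR-367-3p: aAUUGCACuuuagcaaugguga
hsa-miR-205-5p: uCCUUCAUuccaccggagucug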

How the data were processed

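Tn5 libraries were read in pairs of 75 bases, per the labels' protocols. The deposited files are lists of peaks for single libraries, each numbered up to 300000, with 626 to 984 numbers missing in the 4 libraries. By the columns of the deposited files, each peak carries the authors' fold enrichment over local background (a ratio), −log10 p and −log10 q, and a score; the deposited score was not used. The submitters' processing notes name DiffBind and the build hg38, without a version or a role. Aligner, peak caller and their settings: not given in the sources used here.

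At each summit a whole-number pileup was recovered from the deposited fold and −log10 p, within 0.001 of −log10 p in every region. Regions on chromosomes 1 to 22 and X were merged with an overlap of 1 bp, and each was assigned to the nearest end of a protein-coding gene (19974 genes) within 100 kb. Log2(summit + 1) was fitted with limma 3.58.1 in R 4.3.3 with a trend, after cyclic loess. The fit gave a residual spread shared by regions of like height, and p-values were Benjamini-Hochberg adjusted over the 63005 regions. Other steps used Python 3.11.15 with pandas 2.3.3, numpy 2.4.6 and scipy 1.17.1, and the fit was tested on simulated data. Promoters are RefSeq windows of GRCh38.p14, 22156 for 15813 genes and 241 of 355 list genes. Exons, introns and distal sequence were not analysed here.

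The members and the 20 gene lists were chosen with earlier results of these data known. Genes named by rule were the 8 with most gained and most lost regions, 2 of each list with most of both, 16 stage genes, and those of the 6 largest differences and 6 strongest gained and lost promoters in each direction. Other genes, regions and the microRNA window were chosen after their values were seen. The alternatives were the definition of strict and absent, overlap, gene window, scaling, pseudocount, low summits, a replicate block and each library left out. With 2 libraries against 2 no exact permutation test over libraries can go below 0.333 (two-sided). Peak lists hold no library totals, so sequencing depth is unknown beyond the background recovered. Some genes and a motif of the lists are counted but not reported here by name.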

Additional observations from a re-analysis of the deposited data

How the results depend on the processing

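The numbers gained and lost moved with the definition. Gained and lost regions numbered 599 and 1205 with 25000 strict regions, 10240 and 12135 with 100000, 14662 and 13348 where strict meant −log10 q from 5 up, and 4451 and 7803 with absence meaning below 5 times background. Lost regions numbered 2127 with a summit of at least 10 times background, where the Jaccard difference was 0.0777. With a library left out, gained ran from 3435 to 5686 and lost from 5534 to 9200. Higher and lower summits numbered 143 and 169 with background scaling, which moved the median of all regions by 0.24, and 1539 and 2213 among the taller regions by mean height, where 31503 regions were tested. With a library left out, higher ran from 1687 to 3224 and lower from 2005 to 4760.

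Of 224 regions recomputed singly, 86 kept their call in each alternative that fitted them, except background scaling, and 26 kept it there. Among the taller regions by mean height 95 of the 224 were not fitted. The deposited fold reversed 3, all promoters: EOMES (0.20), CER1 (0.15) and NODAL (0.16), where the local background fell with the summit. Median scaling moved the median of all regions by 0.16. The higher FOXA2 region, the SOX17 regions 35085 bp away and over the gene, and regions given only as counts were not recomputed singly.

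The deviations of same-numbered libraries correlated at 0.132, a value that must be the same for both pairs with 2 libraries a stage. The labels do not tie these libraries together, and this value cannot decide whether the numbers pair them. With a replicate block 4673 regions were higher and 5876 lower, and none of the 224 calls was lost. The low background in hAFE (2.22 and 3.85) limits what a missing peak can show there. The weakest deposited peak had a −log10 p of 2.64 and 8.86 in hDE and 2.68 and 2.64 in hAFE. The cut-off for a missing peak was thus highest in hDE replicate 2, where each gained region had none.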
